A study of Mus musculus with 8 samples.

Results

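The axon guidance ligands and receptors examined here were 67 of the 25259 genes in a table of histone mark signal from mouse pancreatic ductal adenocarcinoma cells. They were chosen by name, as every gene whose symbol in the table belongs to the semaphorins of the vertebrate classes, plexins, neuropilins, ephrins, Eph receptors, Slits, Robos or netrins. Earlier results of these data were known when this choice was made. The set held 7 secreted and 13 membrane-bound semaphorins, 9 plexins, 2 neuropilins, 8 ephrins, 14 Eph receptors, 3 Slits, 4 Robos and 6 netrins. The name pattern also took in Plxna4os1, an antisense transcript at the Plxna4 locus, which is counted among the 67 and kept apart from the plexins.

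The cells were pancreatic tumour cells of C57BL/6 background, either Setd2 knockout (KO) or Setd2 wild type (WT). CUT&Tag, in which an antibody directs a transposase to a histone mark, measured H3K36me3 over gene bodies and H3K27ac and H3K27me3 at promoters. H3K27ac was measured in 2 pairs of libraries, and the labels of the second pair add the word vitro. The 8 groups were thus KO and WT for H3K36me3, H3K27me3, H3K27ac without the vitro label and H3K27ac vitro, with 1 library each. The labels call all of these cells cultured, whereas the series title describes cells sorted from orthotopic tumours, so the first H3K27ac pair is named only by the absence of the vitro label. The sources used here do not say how Setd2 was removed or how many clones the lines represent. With 1 library per group, no difference described below has a replicate check, no test was possible, and KO and WT libraries are compared as libraries.

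Guidance cues steer growing axons by attracting or repelling the growth cone. Secreted class 3 semaphorins act through complexes of neuropilins and plexins, and membrane semaphorins mostly bind plexins directly. Ephrins signal to Eph receptor kinases on neighbouring cells, Slits repel through Robos, and netrins act through DCC and UNC5 receptors. In epithelia and carcinomas, the same families take part in cell sorting, adhesion, migration, blood vessel growth and the growth of nerves towards a tumour. H3K27ac marks active promoters, H3K27me3 is the mark of Polycomb repression, and H3K36me3 is laid down over transcribed gene bodies, with Setd2 as the enzyme that completes the trimethylation.

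Signal is printed as the deposited mean coverage per base times 1000, that is, per kilobase, and the scaling of the libraries and their depth are unknown. Over all genes, the median KO and WT signal was 8.33 and 7.54 in the first H3K27ac pair (no vitro label) against 6.69 and 6.90 for vitro H3K27ac. It was 3.79 and 3.18 in the H3K27me3 libraries and 2.999 and 2.72 in those of H3K36me3. The mean H3K36me3 signal was 5.19 in KO and 5.80 in WT, and because the scaling is unknown these means do not check the genotype. Signal at the Setd2 promoter in KO and WT was 18.8 and 19.4 for vitro H3K27ac and 25.1 and 15.6 without the vitro label. For H3K27me3 it was 6.05 and 2.41, and these values are no check of the deletion either. Of 9 epithelial markers such as Krt19 and Krt8, 7 and 6 lay in the top 20% of all genes for WT H3K27ac without and with the vitro label. Epcam was not among them, at percentiles 50.1 and 30.7 in the same order. Of 7 neuronal, 7 endothelial and 7 fibroblast markers, 0 lay in that top 20% in either WT library. Of 6 Schwann cell markers 1 did so in each, and of 7 leukocyte markers 1 in the vitro library. No marker of the 6 lists was listed at 0 in the H3K27ac libraries.

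In WT cells, most guidance genes carried high H3K27me3, and fewer carried high H3K27ac. The top 20% of all genes by promoter H3K27me3 held 42 of the 67 (62.7%) in WT and 44 (65.7%) in KO, and their median percentile in WT was 86.0. For H3K27ac, 18 of the 67 (26.9%) were in the top 20% in the WT library with no vitro label, as were 11 (16.4%) in the vitro WT library. The median H3K27ac percentiles of the set were 65.6 and 58.4 in the same order. A gene was in the top 20% for H3K27me3 but not for vitro H3K27ac in 39 cases (58.2%), against 19.0% of all genes. The reverse held for 8 genes (11.9%, against 19.0%) and neither for 17 (25.4%, against 61.0%). Both held for Efna4, Efna5 and Epha2, which are 4.48% of the set against 0.982% of all genes. With H3K27ac without the vitro label in place of vitro H3K27ac, Ntn3, Plxnd1 and Sema3f joined them. The share of all genes for that pairing was not computed. Within the set, the WT levels of H3K27me3 and vitro H3K27ac ran in opposite order (Pearson r = -0.50, Spearman rho = -0.50 over 67 genes), and over all 25259 genes the values were -0.19 and -0.14. These correlations describe genes within the same libraries, which are not independent replicates.

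**Figure D1:**
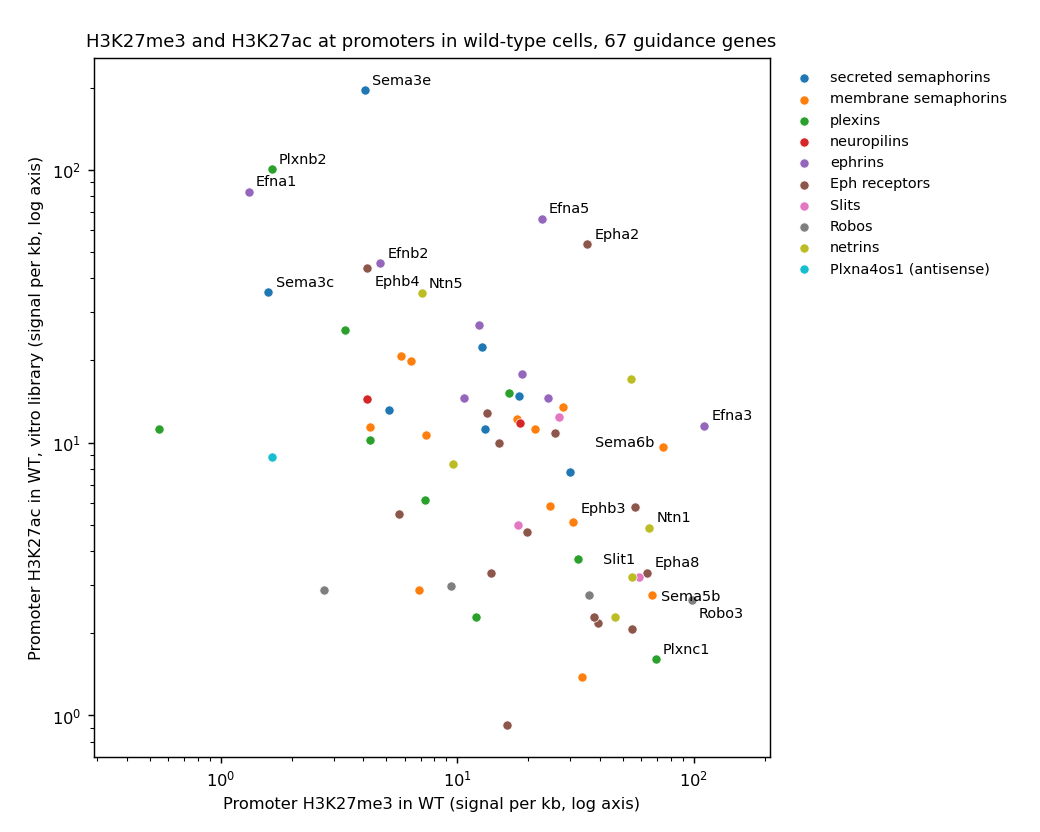
Promoter H3K27me3 (x axis) and vitro H3K27ac (y axis) in WT cells, as signal per kilobase on log axes, with 1 point for each of the 67 genes coloured by family. Sema3e, Plxnb2 and Efna1 lie at the upper left with high H3K27ac, Efna3, Robo3 and Sema6b lie far to the right with high H3K27me3, and Efna5 and Epha2 are high for both marks.

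Of the 14 Eph receptors, 12 were in the top 20% for H3K27me3 in WT and 13 in KO. Their WT H3K27me3 ran from 4.17 for Ephb4 to 63.5 for Epha8, with a median of 22.8. All 3 Slits, 8 of 13 membrane semaphorins, 5 of 8 ephrins, 4 of 7 secreted semaphorins, 4 of 6 netrins, 2 of 4 Robos and 3 of 9 plexins were also in the top 20% in WT. The 5 highest WT H3K27me3 promoters were those of Efna3 at 111, Robo3 at 98.1, Sema6b at 74.4, Plxnc1 at 68.9 and Sema5b at 66.8. Efna3 encodes a GPI-anchored ephrin, Robo3 a divergent Robo that controls midline crossing of commissural axons, Sema6b and Sema5b transmembrane semaphorins and Plxnc1 a receptor of Sema7a. None of these 5 was in the top 20% for vitro H3K27ac in WT.

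The 5 highest vitro H3K27ac promoters in WT were Sema3e at 196, Plxnb2 at 100.5, Efna1 at 83.1, Efna5 at 66.3 and Epha2 at 53.4. Sema3e is a secreted semaphorin that binds Plxnd1 without a neuropilin, and Plxnb2 is a receptor of the membrane semaphorin Sema4c. Efna1 is a ligand of the receptor kinase Epha2, which is widely present in epithelia. In WT without the vitro label the 5 highest were Plxnb2 at 41.9, Plxnd1 at 39.6, Sema3e at 33.4, Sema4c at 30.2 and Efnb2 at 29.1. The ligands Sema3e and Sema4c and their receptors Plxnd1 and Plxnb2 were thus all among these 5. In the vitro WT library, Plxnd1 at 15.2 (percentile 66.5) and Sema4c at 19.9 (percentile 74.0) were outside the top 20% of all genes.

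Neighbouring ephrin genes differed widely in H3K27me3. Efna1, Efna3 and Efna4 lie on chromosome 3 within the RefSeq spans 89271730 to 89280951, 89313899 to 89322939 and 89333393 to 89338028 (GRCm38.p6). Their WT H3K27me3 was 1.32, 111 and 12.4 in that order, and in KO it was 13.3, 220 and 8.08. The middle gene of the 3 was the highest in both libraries. Robo3 and Robo4, which lie 2.02 kb apart on chromosome 9, stood at 98.1 and 35.9 in WT and at 138 and 20.01 in KO.

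The promoters of the set were also rich in the dinucleotide CG. RefSeq promoter windows, from 250 bases before to 50 bases after a gene's start, were at hand for 58 of the 67 genes. The windows of Ntng2, Robo1, Sema3a and Sema4d were left out, because they began 4.91 to 355 kb from the gene start in the deposited table. The limit of 3000 bases for that distance was chosen after the data had been seen. Genes without coordinates in the deposited table, such as Efna1 and Epha6, could not be checked against it. For these the most upstream RefSeq window was used. In the 54 windows used, the median number of CG was 22.5, against 13 over 17785 genes, and the median share of G and C was 64.8% against 56.3%. CG reads the same on both strands and occurred in 95.2% of all windows. Of the 54 windows, 19 were in the top 20% of all genes by CG count and 1 was in the lowest.

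Over all 17785 genes, CG count and WT H3K27ac ran together (Spearman rho = 0.61 in the vitro library and 0.59 in the other). Over the 54 guidance genes the same values were -0.02 and -0.06. For WT H3K27me3, rho was 0.02 over all genes and 0.08 over the guidance genes. With all 58 windows, the values for the guidance genes were 0.01 for both H3K27ac libraries and 0.04 for H3K27me3. Genes within a library share its depth and scaling, so these values are descriptions only.

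The promoters of 4 genes are printed because they differed between KO and WT in the same direction in both H3K27ac pairs, or in opposite directions in H3K27me3 and vitro H3K27ac, with the largest summed log2 ratios among genes whose window was used. Sema3a had a larger sum, but its RefSeq window lies 271 kb from the start in the table. The sequences are from RefSeq (GRCm38.p6), run 5′ to 3′ on the gene's own strand, and have each CG in capitals. Ephb3 is at chr16:21204545-21204844 on the plus strand with 23 CG, Efna1 at chr3:89280902-89281201 on the minus strand with 20, Sema4c at chr1:36558332-36558631 on the minus strand with 19, and Nrp2 at chr1:62703067-62703366 on the plus strand with 37.
Ephb3: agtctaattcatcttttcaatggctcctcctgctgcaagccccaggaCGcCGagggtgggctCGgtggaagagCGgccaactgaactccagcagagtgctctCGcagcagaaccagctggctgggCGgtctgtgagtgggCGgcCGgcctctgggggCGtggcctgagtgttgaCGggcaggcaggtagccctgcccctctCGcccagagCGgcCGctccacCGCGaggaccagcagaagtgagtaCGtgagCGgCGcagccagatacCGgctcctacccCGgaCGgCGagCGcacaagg
Efna1: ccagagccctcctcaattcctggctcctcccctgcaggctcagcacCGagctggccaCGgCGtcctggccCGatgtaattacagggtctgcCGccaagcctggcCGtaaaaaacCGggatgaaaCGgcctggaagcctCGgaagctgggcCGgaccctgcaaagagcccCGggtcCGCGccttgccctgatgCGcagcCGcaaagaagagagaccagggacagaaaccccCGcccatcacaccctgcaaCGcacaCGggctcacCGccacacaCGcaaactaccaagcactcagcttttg
Sema4c: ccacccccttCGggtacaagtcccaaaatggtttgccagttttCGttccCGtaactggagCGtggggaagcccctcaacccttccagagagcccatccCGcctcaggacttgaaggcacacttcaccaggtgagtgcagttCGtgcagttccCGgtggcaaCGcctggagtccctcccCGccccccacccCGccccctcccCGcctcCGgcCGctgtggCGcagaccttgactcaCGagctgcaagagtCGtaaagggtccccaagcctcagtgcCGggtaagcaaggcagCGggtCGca
Nrp2: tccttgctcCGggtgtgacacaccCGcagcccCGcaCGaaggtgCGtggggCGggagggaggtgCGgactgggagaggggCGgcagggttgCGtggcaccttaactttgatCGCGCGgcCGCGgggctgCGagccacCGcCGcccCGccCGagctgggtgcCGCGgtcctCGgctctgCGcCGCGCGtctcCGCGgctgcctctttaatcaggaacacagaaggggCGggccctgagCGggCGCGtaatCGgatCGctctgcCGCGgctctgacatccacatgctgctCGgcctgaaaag
Each window spans a start of its gene and so includes the first transcribed bases. All 4 had more CG than the median window, and Nrp2 stood at percentile 93.4 of all windows. Their WT H3K27me3 nevertheless ran from 1.32 for Efna1 through 6.36 for Sema4c and 18.5 for Nrp2 to 56.5 for Ephb3.

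To compare KO with WT, the floor of each pair (the 25th percentile of its positive values) was added to both libraries before taking log2 of KO over WT, so ratios of weak genes are understated. This floor was 3.29 in the first H3K27ac pair, 2.18 for vitro H3K27ac, 1.54 with H3K27me3 and 2.65 with H3K36me3. A gene entered a comparison if its mean over the pair reached the floor, and it was counted if it differed at least 1.5-fold on this scale. In such bulk libraries, fewer cells that carry a mark and less signal per cell cannot be told apart.

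**Figure D2:**
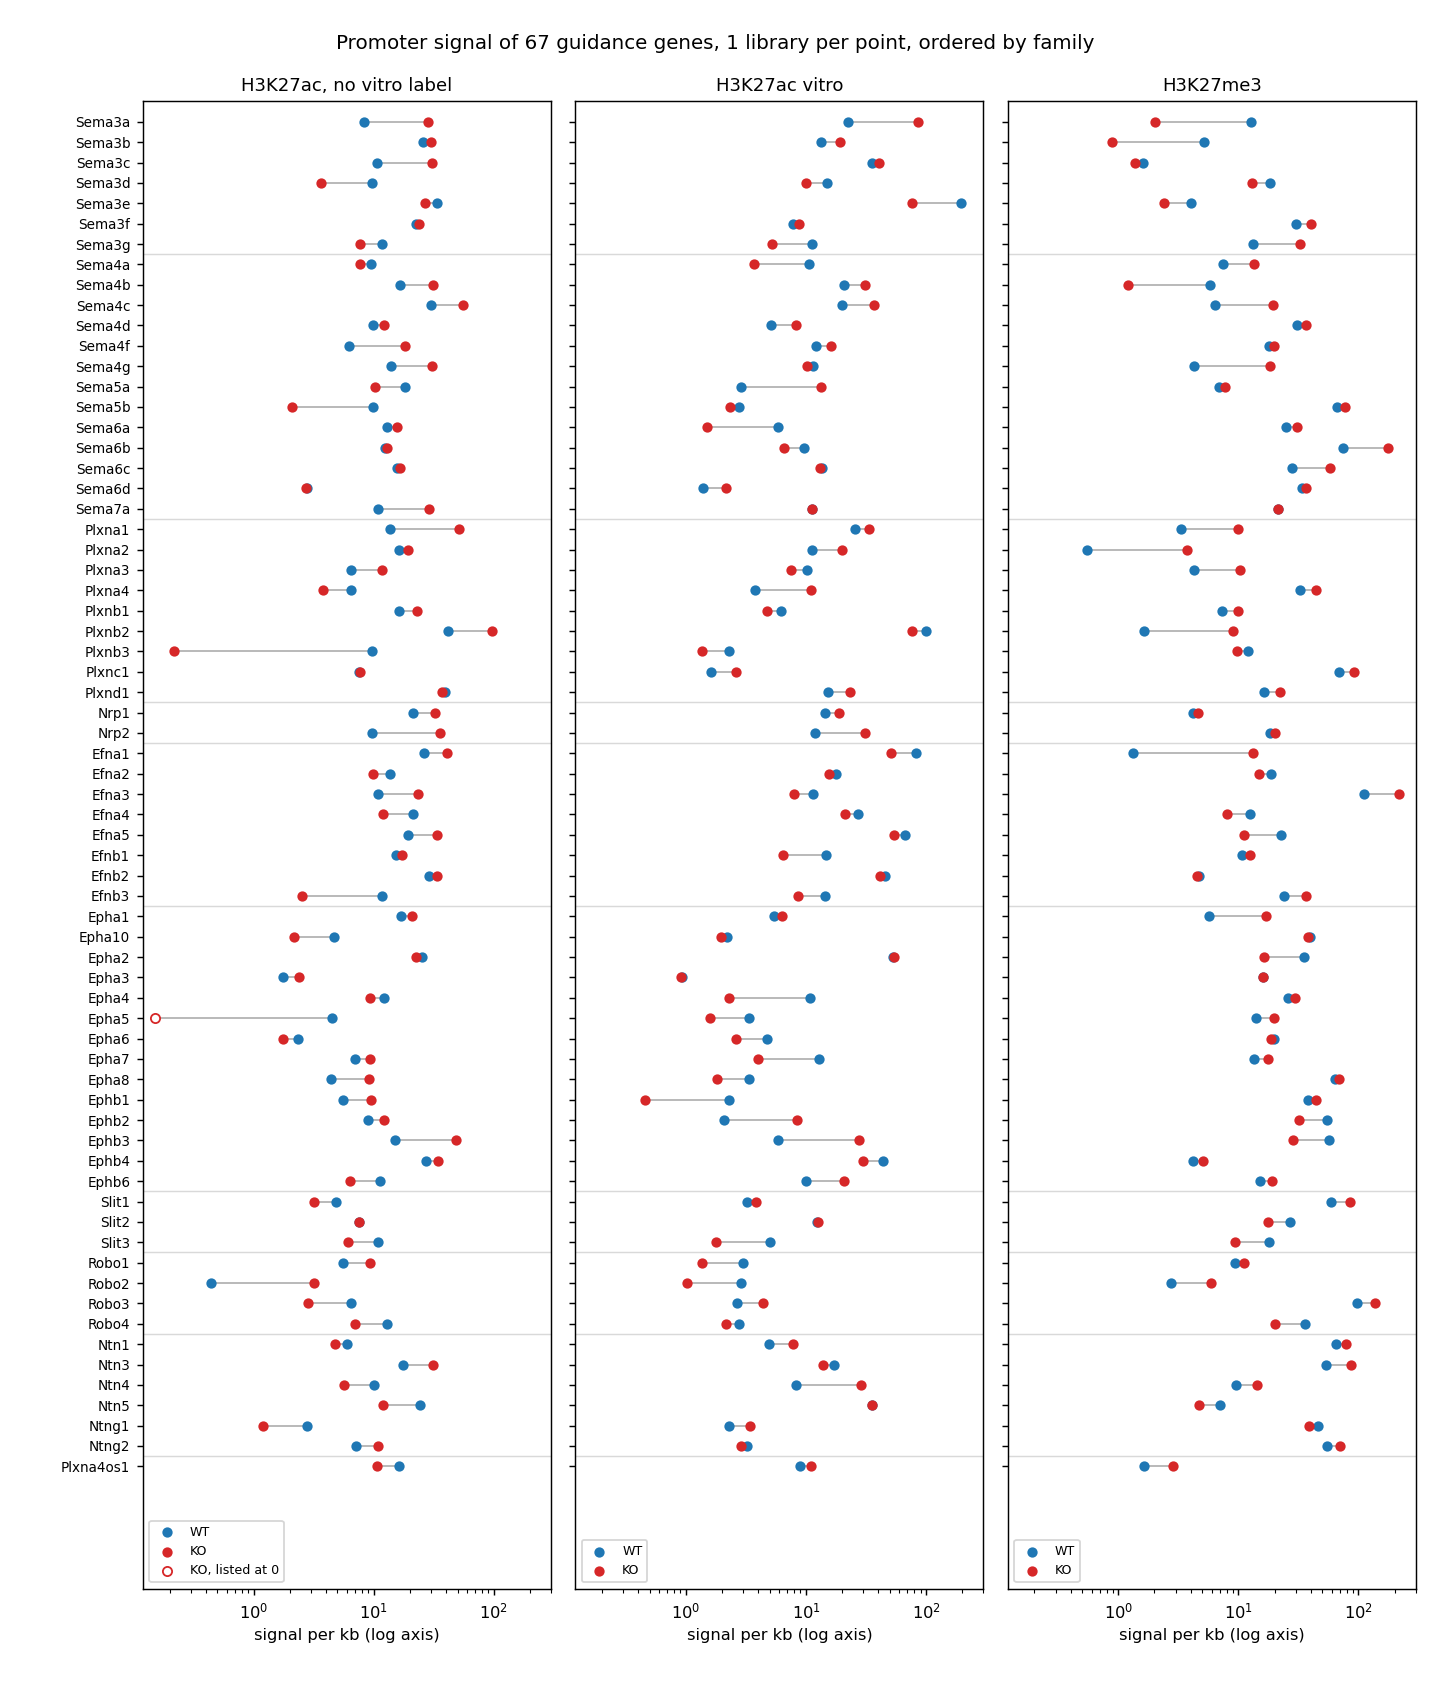
Promoter signal per kilobase (log axis) of each of the 67 genes in KO (red) and WT (blue), with 1 library per point, for H3K27ac without the vitro label, H3K27ac vitro and H3K27me3. Genes are ordered by family, grey lines join the points of a gene, and Epha5 was listed at 0 in the KO library of the first panel.

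In H3K27me3, 66 of the 67 genes entered, all but Sema3c, whose values were 1.38 in KO and 1.59 in WT. Counted as higher in KO were 15 (22.7%), against 30.1% of all genes that entered, and as lower 9 (13.6%), against 16.8%. The median log2 ratio was 0.22 over the guidance genes and 0.18 over all genes. Relative to that shift of all genes, 13 were higher (19.7%, against 23.1% of all genes) and 14 lower (21.2%, against 22.8%). The shares of the set were therefore below those of all genes in each direction, and what follows describes single genes.

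Among ligands, Efna1 had the highest ratio of the set, at 13.3 in KO against 1.32 in WT (log2 ratio 2.38). Its WT value lay below the floor and was the second lowest of the set after Plxna2. Sema4g, a transmembrane semaphorin, stood at 18.4 in KO and 4.28 in WT (1.78), Sema4c at 19.5 and 6.36 (1.41), and Sema3g, a secreted semaphorin that binds Nrp2, at 32.7 and 13.2 (1.22). The window of Sema3g also takes in the start of Nisch, 914 bases away, so that signal may belong to either gene. Efna3, already the highest in WT at 111, reached 220 in KO (0.98).

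Lower H3K27me3 in KO was seen at 5 ligands. Sema3a, a secreted repellent that signals through Nrp1 and class A plexins, had 2.03 in KO and 12.7 in WT (log2 ratio -1.998). Sema3b, regarded as a candidate tumour suppressor in humans, had 0.88 in KO and 5.15 in WT (-1.47). The transmembrane Sema4b stood at 1.21 and 5.81 (-1.42), the ephrin Efna5 at 11.2 and 22.8 (-0.93) and the Robo ligand Slit3 at 9.29 and 18.0 (-0.85). In KO, Sema3b and Sema4b lay below the floor and Sema3a just above it.

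Among the plexins, 4 of 9 were counted as higher in H3K27me3 and 0 as lower, against 30.1% and 16.8% of all genes. Plxnb2 had 9.02 in KO and 1.65 in WT (log2 ratio 1.73), Plxna2 3.74 and 0.548 (1.34), and Plxna1, a signalling partner of neuropilins, 10.005 and 3.34 (1.24). The fourth was Plxna3, at 10.4 and 4.28 (1.04). All 4 had low H3K27me3 in WT, below the median of 18.0 over the set. The WT value of Plxna2 lay below the 1.54 floor and that of Plxnb2 just above it.

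The Eph receptors went both ways. Epha1 had 17.0 in KO and 5.65 in WT (log2 ratio 1.37), and the start of another gene lies 2597 bases from its own. Epha2 had 16.3 in KO and 35.4 in WT (-1.05). Ephb3 stood at 28.4 and 56.5 (-0.96) and Ephb2 at 31.7 and 54.9 (-0.76). In the mouse intestine these B-class receptors position epithelial cells along the crypt. Both kept H3K27me3 well above the median of all genes in KO. Robo4, best known from endothelium, had 20.01 in KO and 35.9 in WT (-0.80).

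In H3K27ac without the vitro label, 61 genes entered. In KO, 16 were counted as higher (26.2%, against 33.3% of all genes) and 11 as lower (18.0%, against 11.5%). The median log2 ratio over all genes was 0.32, and the guidance genes had a median of 0.18. Relative to the shift, 10 were higher (16.4%, against 16.8% of all genes) and 20 lower (32.8%, against 20.7%), and the median of the set turned to -0.14. The direction of the set as a whole thus depended on the scaling, which is not known.

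The 8 genes with the highest ratios were 4 receptors and 4 semaphorins. Plxna1 had 51.4 in KO and 13.6 in WT (log2 ratio 1.69), and Nrp2, the neuropilin that Sema3f and Sema3g bind, had 36.04 and 9.76 (1.59). Ephb3 stood at 48.1 and 15.2 (1.48) and Plxnb2 at 96.4 and 41.9 (1.14). Among ligands, Sema3a had 28.6 in KO and 8.32 in WT (1.46), and Sema3c, a secreted semaphorin, 30.5 and 10.8 (1.26). Sema7a, a GPI-anchored semaphorin, had 29.1 and 10.98 (1.18), and Sema4f 18.1 and 6.27 (1.16). These 8 stayed at least 1.5-fold higher after centring on the median of all genes. Under quantile normalization, Plxnb2 (0.38) fell under 1.5-fold.

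The lowest ratio was at Plxnb3, a receptor of Sema5a, with 0.218 in KO and 9.65 in WT (log2 ratio -1.88). Efnb3, a transmembrane ephrin that acts as a midline barrier in the spinal cord, had 2.52 and 11.9 (-1.38). Sema5b had 2.08 and 9.92 (-1.30), and Sema3d 3.62 and 9.76 (-0.92). For each of these 4 the KO value lay near or below the 3.29 floor. Ntn5, a netrin-like gene, had 11.995 and 24.2 (-0.85), Sema5a 10.3 and 18.4 (-0.67), Efna4 12.1 and 21.1 (-0.67) and Robo3 2.85 and 6.43 (-0.66). The KO value of Robo3 also lay below that floor.

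In the vitro H3K27ac pair, 59 genes entered. Counted as higher in KO were 10 (16.9%, against 10.9% of all genes) and as lower 10 (16.9%, against 13.6%). The median log2 ratio was -0.05 over the set and -0.07 over all genes. Ephb3 had 27.5 in KO and 5.80 in WT (log2 ratio 1.89), Sema3a 85.6 and 22.5 (1.83) and Sema5a 13.4 and 2.87 (1.62). Sema3a in KO was the highest value of the set in that library. Ntn4, a laminin-binding netrin, had 28.7 and 8.33 (1.55), Ephb2 8.46 and 2.07 (1.32) and Nrp2 31.0 and 11.8 (1.24). The WT value of Ephb2 lay below the 2.18 floor. Plxna4, a class A plexin that serves Sema3a with Nrp1, had 10.9 and 3.74 (1.15), and Ephb6, an Eph receptor without kinase activity, 20.9 and 9.998 (0.92).

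Lower vitro H3K27ac in KO was seen at Epha4, a receptor of both ephrin classes, with 2.29 in KO and 10.8 in WT (log2 ratio -1.54). Sema3e, the highest promoter of the set in WT, had 75.9 in KO and 196 in WT (-1.34) and in KO was exceeded only by Sema3a and Plxnb2 within the set. Epha7 stood at 4.003 and 12.9 (-1.28) and Sema4a at 3.66 and 10.7 (-1.14). Sema6a had 1.49 and 5.86 (-1.13), which in KO is below the 2.18 floor. Efnb1, a transmembrane ephrin, had 6.46 and 14.6 (-0.96), Slit3 1.77 and 4.998 (-0.86) and Sema3g 5.20 and 11.2 (-0.86). The KO value of Slit3 was also below the floor.

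Both H3K27ac pairs can be set side by side, since they share no library. Of 56 genes that entered both, Ephb3, Nrp2, Sema3a and Sema4c were higher in KO in each, which is 7.14% against 5.24% of all genes. Efnb3 and Slit3 were lower in each (3.57%, against 2.28%). These counts lie near the background of all genes. Relative to the median of all genes, 4 were lower in each, and Sema4c (0.51 without the vitro label) was no longer counted as higher. The ratios of the 2 pairs correlated at Pearson r = 0.23 over the 56 guidance genes and at 0.21 over 17295 genes, given as a description.

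The 4 genes higher in both pairs comprise a secreted ligand, a neuropilin, a membrane ligand and an Eph receptor. Sema3a (chr5:13125414-13602565, plus strand) and Ephb3 (chr16:21204755-21223305, plus strand) had log2 ratios of 1.46 to 1.89 in the pairs, as given above. Nrp2 (chr1:62703285-62818695, plus strand) had 1.59 and 1.24. Sema4c (chr1:36548639-36558349, minus strand), the ligand of Plxnb2, had 56.0 against 30.2 in the first pair (0.82) and 36.5 against 19.9 in the vitro pair (0.81). Of the 2 lower genes, Efnb3 (chr11:69554092-69560205, minus strand) had vitro values of 8.52 in KO and 14.5 in WT (-0.64). Slit3 (chr11:35121224-35708507, plus strand) had 6.13 and 10.98 without the vitro label (-0.60). The vitro KO value of Slit3 lay below the floor. These gene spans are those of the deposited table, whose build is mm10 per the submitters' processing notes.

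The summed H3K27ac of 7 fibroblast marker promoters in KO and WT was 103 against 55.2 in the first pair and 56.2 against 22.2 in the vitro pair. In the first pair, 3 of 7 were at least 1.5-fold higher and 0 lower, against 33.3% and 11.5% of all genes. In the vitro pair, 2 of 5 that entered were higher and 1 lower, against 10.9% and 13.6%. The vitro sum rested on Col1a1 (23.8 in KO, 5.29 in WT) and Col3a1 (17.7 and 0.92), while Col1a2 (1.26 and 3.68) was lower in KO. The summed epithelial markers stood at 375 against 245 and at 639 against 572 in the same order. Of these 9, 3 were higher and 0 lower in the first pair, and 1 was higher and 2 lower in the vitro pair. The 2 lower were Cdh1 (5.72 in KO, 24.0 in WT) and Krt7 (14.4 and 40.6). The part of the fibroblast or epithelial markers in the values of Sema3a, Nrp2, Ephb3 and Sema4c was not tested.

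**Figure D3:**
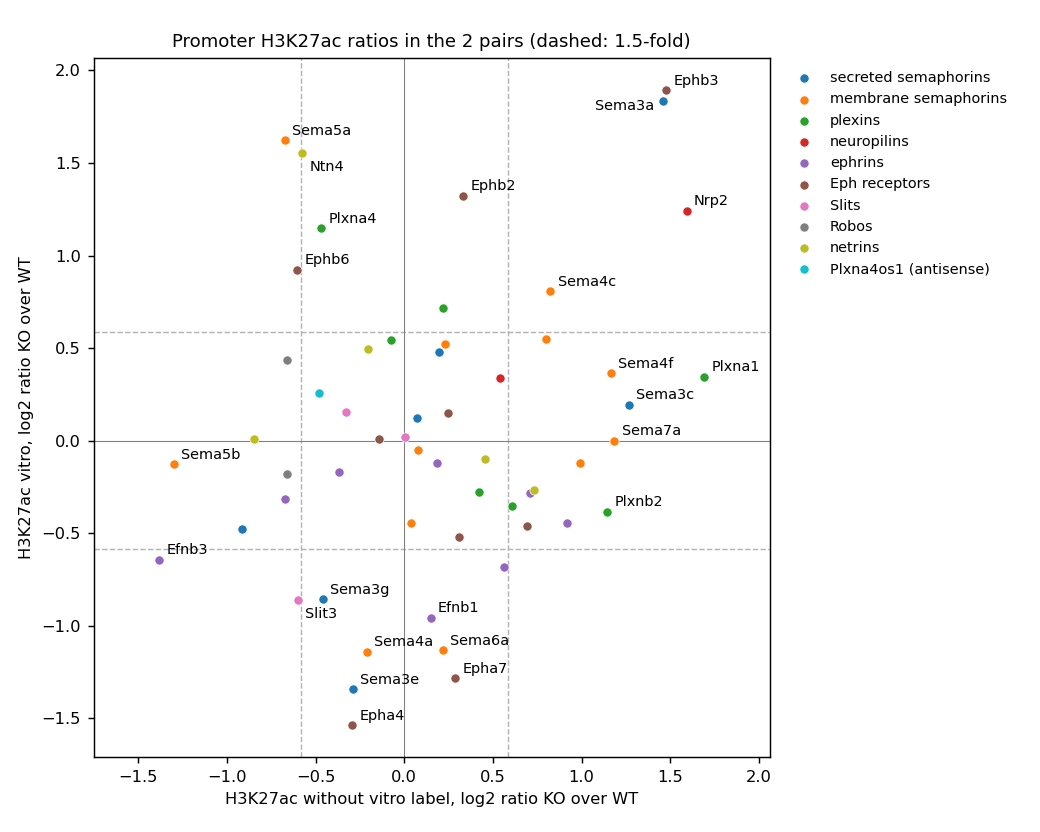
Log2 ratio of KO over WT for promoter H3K27ac without the vitro label (x axis) and with it (y axis), for the 56 guidance genes that entered both pairs. Dashed lines mark 1.5-fold. Ephb3, Sema3a, Nrp2 and Sema4c lie beyond them at the upper right, Efnb3 and Slit3 at the lower left, and Sema5a and Ephb6 at the upper left.

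H3K27me3 and vitro H3K27ac moved in opposite directions at 6 of the 58 genes that entered both. Sema3a, Ephb3 and Ephb2 were lower in H3K27me3 and higher in vitro H3K27ac (5.17%, against 2.28% of all genes). Efna1, Sema3g and Sema4a were higher in H3K27me3 and lower in vitro H3K27ac (5.17%, against 4.79%). The second share lay near that of all genes, and the first rests on 3 genes. Over the 58 genes, the 2 ratios had a Pearson r of -0.23, and over 14970 genes -0.07. Against the ratio of H3K27ac without the vitro label, the H3K27me3 ratio had an r of 0.11 over 60 guidance genes. Over 14783 genes that r was 0.03. The opposite order was thus seen with the vitro pair only.

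At Sema3a, H3K27me3 in KO was 2.03 against 12.7 in WT while vitro H3K27ac was 85.6 against 22.5. Its H3K27me3 in KO lay just above the floor. The RefSeq promoter window of Sema3a lies 271 kb from its start in the deposited table. Which start its promoter values cover is not given. Ephb2 (chr4:136647539-136835988, minus strand) had vitro H3K27ac of 8.46 in KO and 2.07 in WT and remained in the top 20% of all genes for H3K27me3 in KO, as did Ephb3. The vitro H3K27ac of Ephb2 in WT lay below the 2.18 floor.

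At Efna1, vitro H3K27ac was 50.9 in KO and 83.1 in WT (log2 ratio -0.68), while without the vitro label it was 40.6 in KO and 26.4 in WT (0.56). The ratio without the vitro label was under 1.5-fold. Sema4a (chr3:88435959-88461182, minus strand), a membrane semaphorin with roles in immune cells, had H3K27me3 of 13.6 against 7.40 (0.76). Sema3g (chr14:31217860-31230352, plus strand) had H3K27ac without the vitro label of 7.72 and 11.9 (-0.46). Sema4c, by contrast, was higher in KO in all 3 promoter comparisons, and Slit3 was lower in all 3.

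**Figure D4:**
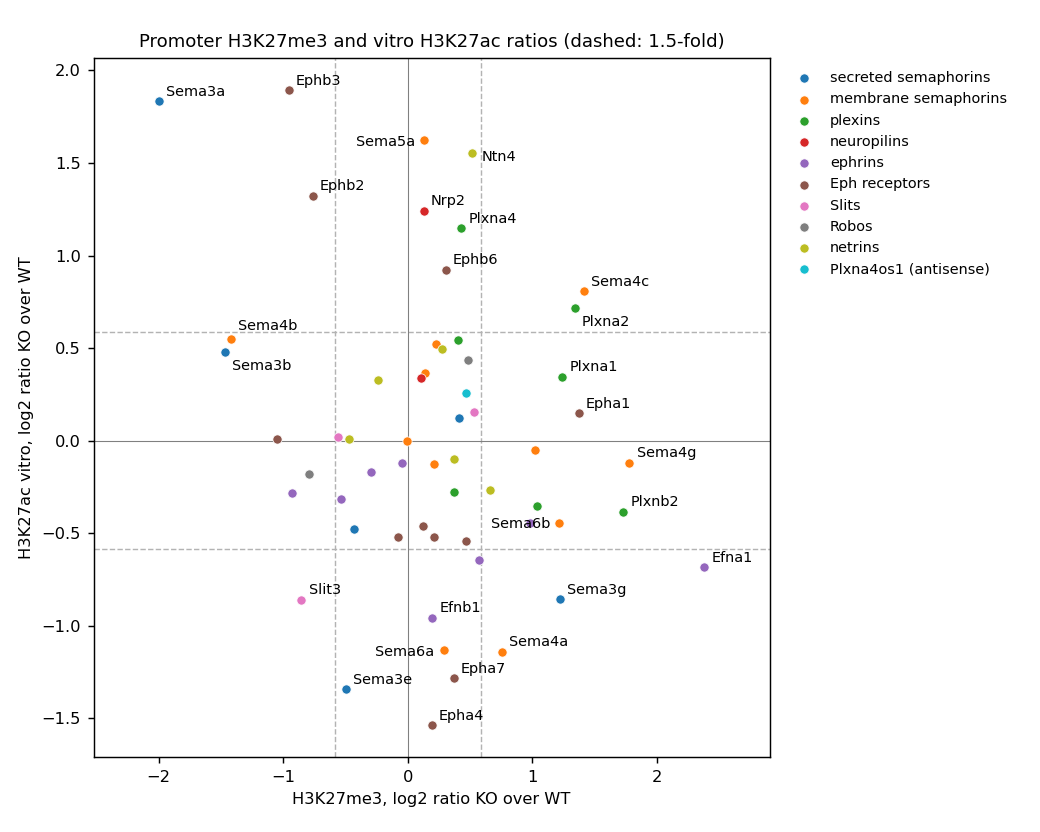
Log2 ratio of KO over WT for promoter H3K27me3 (x axis) and vitro H3K27ac (y axis), for the 58 guidance genes that entered both. Dashed lines mark 1.5-fold. Sema3a, Ephb3 and Ephb2 lie beyond them at the upper left, Efna1, Sema3g and Sema4a at the lower right, Sema4c and Plxna2 at the upper right and Slit3 at the lower left.

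H3K36me3 over gene bodies was compared for the 56 genes that entered. In KO, 6 were counted as higher (10.7%, against 27.1% of all genes) and 15 as lower (26.8%, against 30.3%), with a median log2 ratio of -0.28 against -0.08 over all genes. The 18 guidance genes under 20 kb that entered had a median of -0.33 and a wider spread than the longer ones (SD over genes 1.62). Of 22 guidance genes under 20 kb, 8 were listed at 0 in KO or WT, whereas none of the 45 longer ones was. Among genes of at least 20 kb, 38 guidance genes entered with a median of -0.23 (SD over genes 0.56), and all 8225 genes had a median of -0.08 (SD 0.80). There, 4 were higher (10.5%, against 17% of all genes) and 8 lower (21.1%, against 22.5%).

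Several short genes differed widely in H3K36me3. Plxna4os1, which spans 4.44 kb and overlaps Plxna4, was listed at 0 in WT but had 36.01 in KO. Plxna4 itself had 4.60 and 6.12, and the 2 transcripts cannot be told apart where they overlap. Efna4, too, was listed at 0 in WT, with 14.3 in KO. The reverse held for Sema3g, with a KO value listed at 0 and 14.1 in WT, and for Robo3, with 0 and 5.597. Ntn5 had 0.671 in KO and 20.8 in WT (log2 ratio -2.82), Sema3b 2.44 and 14.5 (-1.75), Efna2 1.81 and 7.98 (-1.25) and Efna3 4.46 and 13.8 (-1.21). Apart from Plxna4, all of these genes are under 20 kb.

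Among the longer genes, ratios lay between -1.41 and 0.98. Sema7a had the lowest, with 2.56 in KO and 11.2 in WT. Ephb4, the receptor of Efnb2, had 5.30 and 16.0 (-1.23). Higher in KO were Ntng2, a GPI-anchored netrin, with 8.71 and 3.09 (0.98), Epha8 with 8.62 and 3.22 (0.94), Ephb2 with 8.90 and 3.72 (0.86) and Epha4 with 6.07 and 2.475 (0.77). Epha8 and Ephb2 are neighbours on chromosome 4, 93.1 kb apart. Of the 4 genes higher in both H3K27ac pairs, Sema3a had H3K36me3 of 4.26 in KO and 7.56 in WT (-0.56), Ephb3 16.6 and 18.0 (-0.10) and Nrp2 3.53 and 2.88 (0.16), and Sema4c was listed at 0 in WT with 3.16 in KO.

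**Figure D5:**
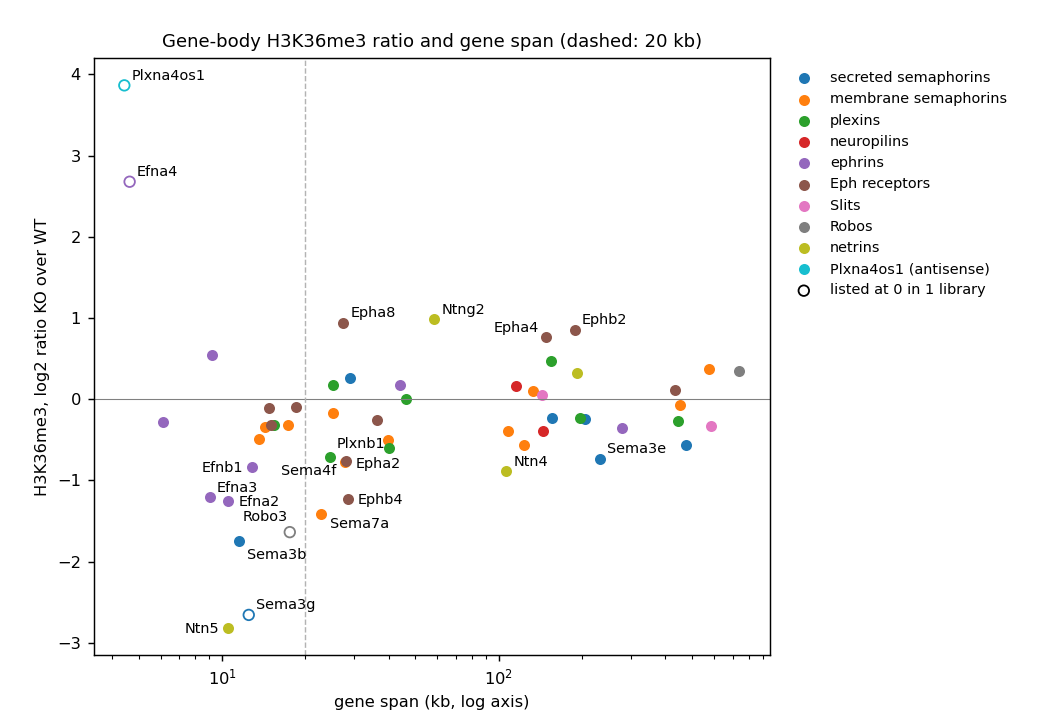
Log2 ratio of KO over WT for gene-body H3K36me3 against gene span (kb, log axis), for the 56 guidance genes that entered. Open circles are genes listed at 0 in 1 of the libraries, whose ratio depends on the added floor, and the dashed line marks 20 kb, right of which the ratios lie between -1.41 and 0.98.

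Other genes of the pathway, 58 receptors, coreceptors and cytoplasmic effectors outside the families above, were all in the table. For H3K27ac without the vitro label, 22 of 56 that entered were higher in KO and 4 lower (median log2 ratio 0.30, against 0.32 over all genes), where 33.3% and 11.5% of all genes were. In the vitro pair 9 of 50 were higher and 6 lower (median -0.01), against 10.9% and 13.6%. For H3K27me3 23 of 54 were higher and 7 lower (0.38), against 30.1% and 16.8%, and in H3K36me3 5 of 51 were higher and 10 lower (-0.07), against 27.1% and 30.3%. Their medians lay within 0.1 of those of all genes in H3K27ac and H3K36me3 and 0.38 against 0.18 in H3K27me3.

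Dpysl3, a collapsin response mediator protein downstream of semaphorins, had H3K27ac of 34.7 in KO against 10.3 in WT (log2 ratio 1.49), and of 28.7 and 2.87 in the vitro pair (2.61). Mical2, of the actin-oxidising family that plexins use, had 63.2 and 21.0 (1.46), and Srgap2, a Slit and Robo GTPase-activating protein, 102 and 38.4 (1.33). Lower were Flrt2 (-0.90), Enah (-0.81) and Dscam (-0.72). The KO values of Flrt2 and Enah lay below the 3.29 floor. Enah, an actin regulator, was the opposite in the vitro pair, with 25.4 in KO and 2.41 in WT (2.58). Fyn, a Src-family kinase, had 14.8 and 3.22 there (1.65), and Rock1 (-0.89), Tiam1 (-0.87) and Arhgef11 (-0.86) were lower.

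In H3K27me3, Rnd1, a GTPase that binds plexins, had 25.1 in KO and 7.34 in WT (log2 ratio 1.58), and Farp1 6.32 and 1.32 (1.46). Rtn4r, the Nogo receptor, had 154 and 57.2 (1.40). Mical1 (-1.37), the netrin receptor Unc5c (-1.003) and Mical2 (-0.998) were lower. The WT value of Farp1 and the KO values of Mical1 and Mical2 lay below the 1.54 floor. In H3K36me3, Mical1 had 2.18 in KO and 36.2 in WT (-3.01), Cfl1 had 11.3 in WT and a KO value listed at 0, and L1cam had 2.35 and 12.4 (-1.59). The KO values of Mical1 and L1cam lay below the 2.65 floor. Rnd1 was listed at 0 in WT with 8.56 in KO, and Rac1 (0.88) and Ngef (0.75) were higher in KO.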

How the data were processed

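The authors deposited 1 table of signal, the mean coverage per base of a promoter or gene body, in 8 columns and 25450 gene rows. Per the submitters' processing notes, Bowtie2 2.4.2, HOMER and MACS2 2.2.7.1 were used with mouse build mm10. The sources used here do not give the scaling, promoter window, counting step or depth. Promoter values times 6000 came out as whole hundredths (tolerance 0.02) in at least 99.96% of values per library, so a window or divisor of 6000 bases is implied. Without counts, no counting interval could be given.

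Row names were matched to RefSeq symbols (GRCm38.p6), of which 25222 were current, 105 older and 123 unmatched. Where several rows carried a gene, that of highest mean was kept, which removed 191 rows, none of a guidance gene. Coordinates of 13 guidance genes, absent from their rows, were taken from RefSeq. With 1 library per group there was no test and no p-value. The members and gene lists were chosen with earlier results of these data known.

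Genes were named by rule: in each comparison the 8 highest and the 8 lowest of the ratios past 1.5-fold, the 5 highest WT levels per promoter mark, genes moving in both H3K27ac pairs or oppositely in 2 comparisons, and 3 other pathway genes per direction. Others named beside them were chosen after their values were seen. Other settings tried were pseudocounts 5 times larger and 5 times smaller, ratios without the low-value filter, centred or quantile-normalized ratios, 2-fold in place of 1.5-fold, the row with the lowest mean, and genes of at least 20 kb. The code, in Python with numpy and pandas, was tested on simulated data.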

Additional observations from a re-analysis of the deposited data

Results flagged for a closer look

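Sema5a and Ephb6 went opposite ways in the H3K27ac pairs, each by at least 1.5-fold, and the difference between the pairs was not tested. Sema5a, a transmembrane semaphorin with thrombospondin repeats, had a log2 ratio of KO over WT of -0.67 without the vitro label (10.3 in KO, 18.4 in WT) and 1.62 in the vitro pair (13.4 in KO, 2.87 in WT). Its start lies 148 bases from that of the non-coding gene Snhg18, so both genes share the window. Ephb6 had -0.60 without the vitro label (6.35 in KO, 11.4 in WT) and 0.92 in the vitro pair (20.9 in KO, 9.998 in WT). Opposite directions of this size were found at 2 of 56 guidance genes (3.57%) and at 601 of all 17295 genes (3.47%).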

How the results depend on the processing

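Of the 92 ratios of guidance genes past 1.5-fold, 0 changed direction under the alternatives run. Only quantile normalization could have turned one, so the other alternatives are no check of direction. Changed pseudocounts, filter, row choice and span keep the sign of a ratio. Centring moved ratios by at most 0.32, less than the 1.5-fold limit (log2 of 0.585). The larger pseudocount took 42 of the 92 under 1.5-fold, centring 10 and quantile normalization 12. Named ratios under 1.5-fold were not followed. Of 111 recomputed counts and medians, 82 stayed close to their values and 29 moved. With a pseudocount 5 times larger, H3K27ac without the vitro label counted 10 genes higher and 1 lower, vitro H3K27ac 4 lower, and H3K36me3 2 higher and 6 lower with a median of -0.12. In both H3K27ac pairs 0 were then lower, and 1 was higher in H3K27me3 with lower vitro H3K27ac. At 2-fold, which lowers counts by construction, H3K27ac without the vitro label counted 8 higher and 3 lower, vitro H3K27ac 5 lower, H3K27me3 4 lower and H3K36me3 2 higher and 8 lower. At 2-fold, 0 were lower in both H3K27ac pairs, 1 was lower in H3K27me3 with higher vitro H3K27ac, and 0 were higher in H3K27me3 with lower vitro H3K27ac. Centring turned the sign of the median of H3K27ac without the vitro label to -0.14 (10 higher, 20 lower), and quantile normalization to -0.24 (8 higher, 17 lower). Each gave 4 genes lower in both H3K27ac pairs. In H3K27me3, centring gave 14 lower and a median of 0.040, and quantile normalization a median of 0.018. Restricting H3K36me3 to genes of at least 20 kb, which tests fewer genes, left 8 lower. With all 58 RefSeq windows, an alternative added after the data were seen, Spearman's rho of CG count with WT signal was 0.039 for H3K27me3, 0.0073 for vitro H3K27ac and 0.010 for H3K27ac without the vitro label. Apart from 2-fold and the gene span, the cause of these moves was not tested. No paired analysis was possible because each group had 1 library. Depth is unknown, so its limits could not be set.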
